A study of Mus musculus with 10 samples.

Results

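Mouse lung cells labelled premalignant and carrying APE1 flox/flox were compared with cells carrying APE1 flox/+, across all genes of the deposited count table. The 2 genotypes hold 7 of the 10 libraries of the series, 3 of flox/flox and 4 of flox/+, and were taken by their genotype label. All 7 came from lung tissue at 12 wk of Cre-adenoviral infection, so Cre was given to the controls too. A flox allele is flanked by loxP sites, between which Cre cuts out DNA. The flox/+ cells keep an allele that Cre does not cut, and the flox/flox cells have none. About 500 cells went into each library, made with a modified form of SMART-Seq2, which copies whole transcripts, followed by tagmentation of 1 ng of cDNA. The alleles that make the cells premalignant, the way the cells were isolated, the ages, and the part of the gene that is floxed were not stated in the labels used here. Whether replicates are separate animals is not labelled, so p-values measure the spread between these samples, which may be technical. Both genotypes thus carry an allele that Cre can cut, and the comparison is between cells that keep an uncuttable one and cells that do not. The series title points to the urea cycle and to G-quadruplexes, DNA folds that form where runs of G lie close together.

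Apex1 encodes APE1, the endonuclease that cuts DNA at sites that have lost their base, a central step of base excision repair. The same protein is also known as a redox factor that keeps transcription factors such as AP-1 and NF-kB in a state that binds DNA. In the lung, the alveolus is lined by type II cells, which secrete surfactant and can give rise to adenoma, and by flat type I cells. The airway is lined by club cells, which secrete and detoxify, and by multiciliated cells, whose motile cilia are built under FOXJ1 and RFX factors.

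Most genes of motile cilia had higher fitted values in flox/flox than in flox/+. RFX factors bind the X-box, an inverted repeat, and 18 of the 101 cilia genes with a promoter entry held it between 250 bases before and 50 after the gene's start (17.8%). All genes with a promoter entry held it in 1.75% of cases, genes tested in 2.30% and genes outside the axonemal lists in 2.16%. Of the 18 genes, 17 had a log2 fold change above 0 and 7 were higher at an unadjusted edgeR p under 0.05, beside 52.6% and 3.54% of all genes tested. Of all members tested, 17 of 18 regulators, 24 of 26 dynein genes, 48 of 49 axonemal genes and 26 of 30 transport genes were above 0. In the same order 4, 14, 22 and 8 were higher at that p. Most cilia genes were thus above 0 whether or not they held an X-box. Those 7 sites are shown because the cilia genes are a main group described below, and the 7 were chosen after the values were seen. They are written on the gene's strand from RefSeq promoters on GRCm38.p6, with the X-box in capitals and with up to 20 bases on each side, up to the start site.
Dnaic2, chr11:114727366-114727418, + strand: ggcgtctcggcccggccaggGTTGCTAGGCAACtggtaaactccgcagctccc
Hydin, chr8:110266936-110266976, + strand: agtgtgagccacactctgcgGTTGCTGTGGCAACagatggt
Iqca, chr1:90153450-90153504, - strand: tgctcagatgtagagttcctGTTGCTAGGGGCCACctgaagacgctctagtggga
Spag16, chr1:69826847-69826900, + strand: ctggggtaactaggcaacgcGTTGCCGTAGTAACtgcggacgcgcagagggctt
Lrriq1, chr10:103236323-103236361, - strand: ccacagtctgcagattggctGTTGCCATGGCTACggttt
Cfap44, chr16:44394752-44394798, + strand: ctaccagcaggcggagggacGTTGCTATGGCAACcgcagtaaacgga
Kif17, chr4:138262158-138262210, + strand: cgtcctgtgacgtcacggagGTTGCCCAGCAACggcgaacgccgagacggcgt
The motif starts 33 bases before the gene's start in Dnaic2, 21 in Hydin, 48 in Iqca, 103 in Spag16, 19 in Lrriq1, 27 in Cfap44 and 73 in Kif17. Both strands were searched, a match is a description of letters, and binding was not measured here.

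The libraries differed in ways that touch every result. Total counts ran from 13221853 to 17707731 in flox/+ and from 10672334 to 53678659 in flox/flox, whose replicate 3 was the deepest. Of the genes tested, 0.756% to 10.8% had 0 counts in a flox/+ library, and 10.1%, 28.9% and 7.51% in flox/flox replicates 1 to 3. Rank correlations were 0.660 to 0.800 within flox/+ and 0.537 to 0.567 within flox/flox. Between genotypes they were 0.502 to 0.749. Flox/flox replicate 1 had correlations of 0.619 to 0.749 with the flox/+ libraries and of 0.567 and 0.545 with the other flox/flox libraries. Y-linked genes exceeded Xist in 2 flox/+ libraries (replicates 2 and 4) and in 1 flox/flox library (replicate 2), so each genotype held both classes. Levels are given as CPM, in which counts are divided by the scaled size of each library. Epithelial identity was checked with Epcam, which stood at 398, 392, 422 and 513 CPM in flox/+ and 323, 662 and 582 in flox/flox. Of the defining genes of other cells, some were at or near 0, with Cd3e, Marco and C1qa at 0 counts in every library and Ptprc, Pecam1 and Col1a2 at no more than 7.52, 4.86 and 0.184 CPM. The genes near 0 do not stand for their whole lists. Macrophage genes summed to 357 to 1574 CPM in flox/+ and 189 to 496 in flox/flox, and fibroblast and matrix genes to 199 to 550 and 57.0 to 1575. Endothelial genes summed to 58.9 to 110 and 8.25 to 96.0, and T, NK and B cell genes to 9.71 to 50.6 and 1.11 to 39.9. Other lists of such cells were read, with summed levels of 45.1 to 2972 CPM in flox/+ and 84.4 to 2895 in flox/flox for erythroid genes. Neutrophil genes summed to 0.194 to 333 CPM in flox/+ and 0.680 to 70.2 in flox/flox. Their part in the results was not tested.

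Apex1 (chromosome 14) stood at 4.06, 15.6, 35.1 and 53.2 CPM in flox/+ replicates 1 to 4 and at 5.90, 0 and 0.524 in flox/flox replicates 1 to 3. The genotypes overlapped through flox/+ replicate 1 and flox/flox replicate 1. Its log2 fold change was -3.66 (SE 1.99), with an edgeR adjusted p of 0.642, and -6.51 without flox/flox replicate 1. Counts are summed over the gene and may include transcript parts outside the floxed one, so the extent of the deletion in each library is not known.

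The table holds 25277 genes, of which 12165 passed the low-count filter, and edgeR called 0 at an adjusted p under 0.05 (0%). The lowest adjusted p was 0.437, shared by 553 genes. None of the genes below passed, and p-values beside single genes are adjusted ones. At an unadjusted p under 0.05 there were 1092 genes (8.98%), of which 431 were higher in flox/flox (3.54%) and 661 lower (5.43%). DESeq2, another count model, called 432 genes at an adjusted p under 0.05 (3.76%), 74 higher (0.645%) and 358 lower (3.12%). Without flox/flox replicate 1, edgeR gave 745 higher (5.68%) and 1477 lower (11.3%) at an unadjusted p under 0.05. All 432 DESeq2 genes had the same direction in edgeR, and 420 had an unadjusted edgeR p under 0.05. All flox/flox libraries lay above all flox/+ libraries for 451 genes (3.71%) and below them for 949 (7.8%), so that 1400 genes had no overlap (11.5%).

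Higher and lower genes differed in level and in their share of 0 counts in flox/flox. Among the 661 lower genes, 58.1% had 0 counts in at least 2 flox/flox libraries and 24.5% in all 3, against 9.61% and 1.33% of all genes tested. Among the 431 higher genes those shares were 0.232% and 0%, which the direction of the call largely fixes. Shares of 0 counts in flox/+ are not given here. The split also depends on the low-count filter, and with no filter 1330 genes were higher and 664 lower. The lower genes had a median mean level of 5.09 CPM, the higher genes 87.0 and all genes tested 23.5. Lower genes were therefore mostly genes at a low level with no reads in at least 2 flox/flox libraries. Transcript length and GC content had medians of 3350 bases and 51.6% in higher genes, 2989 and 50.1% in lower genes and 3289.5 and 49.7% in all. Over all genes tested the median log2 fold change was 0.09, while the difference of mean log2 CPM was above 0 for 36.6% of genes, with a median of -0.60 and, by library, -0.02, -1.0 and -0.01 in flox/flox replicates 1 to 3. Lists are therefore described by the fitted fold change, beside 0.09, and members of a list are counted as higher or lower at an unadjusted p under 0.05. The shares over all genes moved with each library left out. Without flox/+ replicates 1 to 4 in turn, 1.70%, 2.36%, 3.24% and 1.95% were higher and 3.30%, 3.05%, 4.30% and 2.74% lower. Without flox/flox replicates 1 to 3 in turn, 5.68%, 6.73% and 1.75% were higher and 11.3%, 4.71% and 5.95% lower. List counts with a library left out are to be read beside these.

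**Figure D1:**
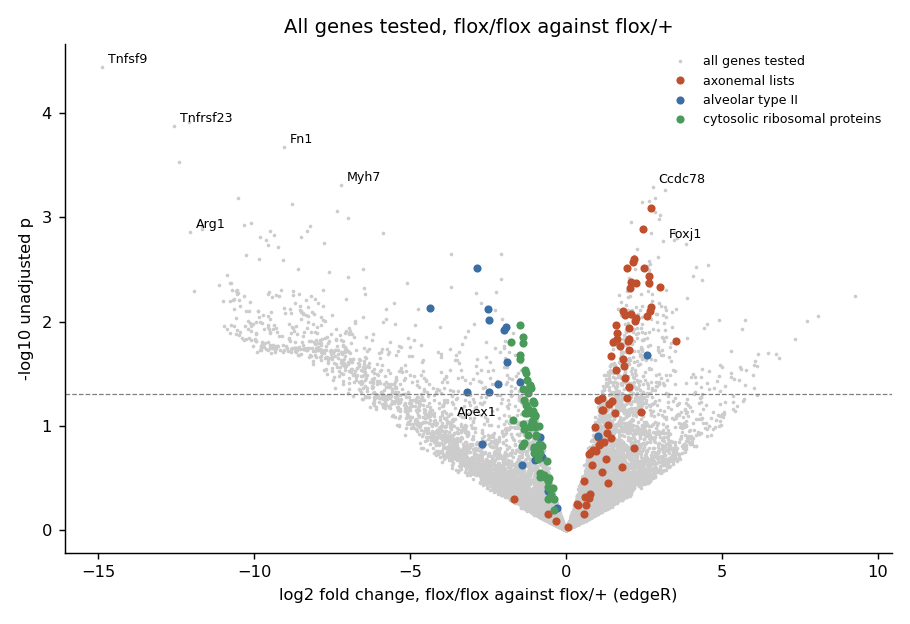
Each point is 1 of the genes tested, with the edgeR log2 fold change of flox/flox against flox/+ on the x axis and -log10 of the unadjusted p on the y axis, and a dashed line at an unadjusted threshold of 0.05. Members of the axonemal lists lie mostly to the right, alveolar type II and ribosomal protein genes mostly to the left, and the genes with the smallest p are low genes at or near 0 counts in flox/flox.

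Cilia lists had median log2 fold changes above 0, from transcription factors to motors. Of 18 regulators tested, 17 had a log2 fold change above 0, against 52.6% of all genes, with a median of 1.66. At an unadjusted edgeR p under 0.05, 4 were higher (22.2%, beside 3.54% of all genes) and 0 lower. Foxj1, the master factor of motile cilia, stood at 30.8, 15.7, 21.7 and 6.77 CPM in flox/+ and 98, 64.3 and 326 in flox/flox. Its lowest flox/flox library was above its highest flox/+ library, and the fit gave a log2 fold change 3.12, SE 0.80, edgeR adjusted p = 0.437. Rfx3, an X-box factor that works with FOXJ1, stood at 13.3, 62.9, 55.8 and 52.2 CPM in flox/+ and 135, 131 and 207 in flox/flox and did not overlap either (log2 fold change 1.77, SE 0.67, edgeR adjusted p = 0.437). Ccdc78, of the deuterosome that multiplies centrioles, stood at 41.4, 68.8, 143 and 44 CPM in flox/+ and 249.7, 579.8 and 719 in flox/flox (log2 fold change 2.8, SE 0.62, edgeR adjusted p = 0.437). Mcidas, an early inducer of the multiciliated fate, had at most 1.92 CPM in flox/+ and 0 counts in flox/flox and was not tested, and Ccno and Trp73 overlapped between genotypes (log2 fold change 2.81, SE 2.25, edgeR adjusted p = 0.793 and log2 fold change -0.27, SE 2.16, edgeR adjusted p = 0.987). The summed level of the regulators was 342, 442, 666 and 331 CPM in flox/+ and 1031, 1566 and 2144 in flox/flox, with no overlap.

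Axonemal dyneins, the motors that bend the cilium, had 24 of 26 members above 0 and a median log2 fold change of 1.81. Of the 26, 14 were higher (53.8%, beside 3.54% of all genes) and 0 lower. The outer arm intermediate chain Dnaic2 stood at 22, 64.5, 45.2 and 38.3 CPM in flox/+ and 244, 123 and 470.1 in flox/flox (log2 fold change 2.72, SE 0.64, edgeR adjusted p = 0.437). The inner arm heavy chain Dnah6 stood at 74.4, 153, 206 and 81 CPM in flox/+ and 442, 303 and 979 in flox/flox (log2 fold change 2.16, SE 0.59, edgeR adjusted p = 0.437). Dnah11, an outer arm heavy chain, stood at 56.4, 83.3, 29.3 and 33.2 CPM in flox/+ and 179, 165 and 297 in flox/flox (log2 fold change 2.08, SE 0.61, edgeR adjusted p = 0.437). In all 3 the flox/flox libraries lay above every flox/+ library, with flox/flox replicate 3 the highest. The outer arm heavy chains Dnah5 and Dnah9 overlapped, with log2 fold change 1.59, SE 0.66, edgeR adjusted p = 0.478 and log2 fold change 1.87, SE 0.76, edgeR adjusted p = 0.470. The 2 members below 0 were Dnaaf1 and Dnaaf2, which help assemble the arms in the cytoplasm. Dnah7c, a heavy chain that has near-identical neighbours and whose reads are therefore uncertain, stood at 19.7, 50.1, 32.7 and 38.4 CPM in flox/+ and 137, 117 and 516 in flox/flox (log2 fold change 2.86, SE 0.68, edgeR adjusted p = 0.437). Without flox/flox replicate 3 the higher members numbered 8 in place of 14, and over all genes 1.75% were then higher.

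Proteins of the axoneme itself had 48 of 49 members above 0, a median log2 fold change of 1.44, and 22 higher and 0 lower, a share of 44.9% beside 3.54% of all genes. Efhc2 was the member below 0. Hydin, of the central pair, stood at 33.8, 79.6, 129 and 57.1 CPM in flox/+ and 226, 314 and 476 in flox/flox (log2 fold change 2.18, SE 0.59, edgeR adjusted p = 0.437). Cfap54, also of the central pair, stood at 63.5, 129, 148 and 48.4 CPM in flox/+ and 325, 337 and 965 in flox/flox (log2 fold change 2.48, SE 0.61, edgeR adjusted p = 0.437). Drc1, of the nexin-dynein regulatory complex, stood at 12, 66.5, 71 and 61.1 CPM in flox/+ and 107, 186 and 709.7 in flox/flox (log2 fold change 2.67, SE 0.76, edgeR adjusted p = 0.437). None of these 3 overlapped between genotypes. Spag17, of the central pair, was nearly equal in the flox/flox libraries, at 130.1, 184, 232 and 59.2 CPM in flox/+ and 487, 439.6 and 463 in flox/flox (log2 fold change 1.62, SE 0.55, edgeR adjusted p = 0.437). Iqca, which carries an X-box, was highest in flox/flox replicate 2, at 59.2, 98.8, 65.4 and 88.9 CPM in flox/+ and 184, 475 and 258 in flox/flox (log2 fold change 1.97, SE 0.55, edgeR adjusted p = 0.437). Tekt1, Sntn and Tppp3, markers of mature cilia, overlapped between genotypes (log2 fold change 1.47, SE 0.71, edgeR adjusted p = 0.565, log2 fold change 1.04, SE 0.64, edgeR adjusted p = 0.703 and log2 fold change 1.56, SE 0.81, edgeR adjusted p = 0.603). The summed level of the list was 3541, 7654, 12659 and 6009 CPM in flox/+ and 12344, 19015 and 27222 in flox/flox, so flox/flox replicate 1 lay below flox/+ replicate 3. The count of higher members was 11 without flox/flox replicate 3 and 30 when the spread was estimated over all 10 libraries of the series, where 5.73% of all genes were higher.

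Intraflagellar transport and basal body genes, which serve immotile cilia as well, had 26 of 30 members above 0 and a median of 1.02. Of the 30, 8 were higher (26.7%, beside 3.54% of all genes) and 0 lower. Ift88, of the anterograde train, stood at 29.9, 99.3, 103 and 31.1 CPM in flox/+ and 241, 148 and 351 in flox/flox (log2 fold change 1.91, SE 0.64, edgeR adjusted p = 0.437). Bbs4, of the BBSome that carries membrane cargo, stood at 3.47, 20.2, 13.1 and 26.9 CPM in flox/+ and 95.3, 73.7 and 109 in flox/flox (log2 fold change 2.54, SE 0.89, edgeR adjusted p = 0.437). Both separated the genotypes. Kif17, a kinesin with an X-box, was near 0 in flox/+ and in flox/flox replicate 1, at 0, 0.640, 0 and 0.218 CPM in flox/+ and 0, 34.4 and 37.6 in flox/flox (log2 fold change 6.74, SE 2.57, edgeR adjusted p = 0.440). The list had 3 higher members without flox/+ replicate 1, 5 without flox/+ replicate 2, 4 without flox/+ replicate 4, and 5 when flox/flox replicate 3 was left out. The difference of mean log2 CPM gave medians above 0 in each flox/flox library for all 4 cilia lists, at 1.99, 1.65 and 2.08 for the regulators and 1.09, 1.19 and 2.16 for axonemal structure. In bulk samples, more cells of a type and more RNA per cell cannot be told apart, and likewise fewer cells and less RNA.

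**Figure D2:**
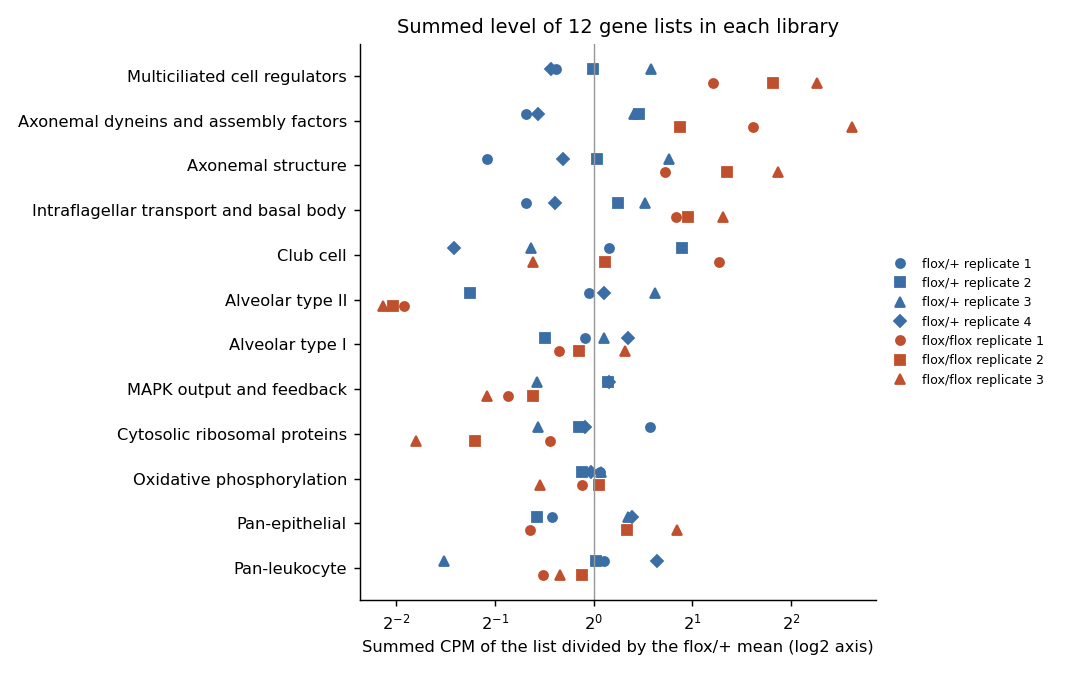
The summed CPM of 12 gene lists in each library, divided by the mean of the 4 flox/+ libraries, on a log2 axis, with blue for flox/+, red for flox/flox and marker shapes for replicates. The regulators, dyneins and intraflagellar transport lists separate the genotypes upward and the alveolar type II and MAPK lists downward, while club cell, alveolar type I and pan-leukocyte sums overlap.

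Other genes were among the 15 with the smallest p whose libraries all stood higher in flox/flox. Spata17 stood at 15.4, 46.3, 34.8 and 23 CPM in flox/+ and 139, 159 and 357 in flox/flox (log2 fold change 2.87, SE 0.65, edgeR adjusted p = 0.437). Vwa3a stood at 35.2, 60.0, 93.7 and 48.9 CPM in flox/+ and 176, 172 and 1095 in flox/flox (log2 fold change 3.02, SE 0.72, edgeR adjusted p = 0.437). Enpp5 stood at 12.7, 72.3, 21.7 and 16.5 CPM in flox/+ and 183, 176 and 382 in flox/flox (log2 fold change 3.0, SE 0.72, edgeR adjusted p = 0.437). Each was higher in all 3 flox/flox libraries, and Vwa3a was highest in replicate 3. Morn3, Wdr63, Cdhr3 and Fhad1 belong to the same set, with log2 fold changes of 3.18, 2.67, 2.45 and 2.08. The set also held genes with other roles. Scnn1a, a subunit of the epithelial sodium channel that takes up sodium from the airway surface, stood at 12.2, 9.55, 7.7 and 15.8 CPM in flox/+ and 26.4, 75.5 and 277 in flox/flox (log2 fold change 3.48, SE 0.89, edgeR adjusted p = 0.437). Qsox1, a secreted enzyme that forms disulfide bonds, stood at 14, 4.7, 12 and 9.82 CPM in flox/+ and 34.3, 62.8 and 266 in flox/flox (log2 fold change 3.57, SE 0.91, edgeR adjusted p = 0.437). Pisd-ps3, a pseudogene whose reads can belong to its parent gene, stood at 81.6, 177, 413 and 188 CPM in flox/+ and 649, 760.2 and 2824 in flox/flox. DESeq2 called 29 of the 30 genes chosen by this rule in both directions, with adjusted p-values up to 0.0101, and gave none for Kng2. The 30 were chosen by edgeR p and no overlap in the same counts, so these calls are not separate support.

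**Figure D3:**
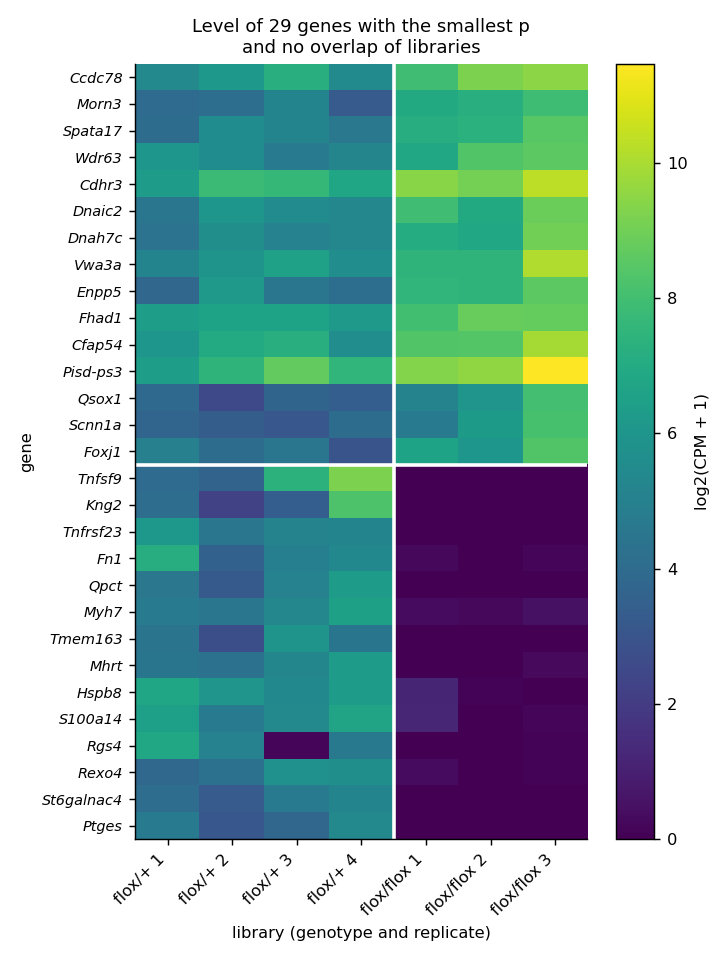
log2(CPM + 1) of 29 of the 30 genes with the smallest edgeR p and no overlap between genotypes (rows, 15 higher then 14 lower) in the 7 libraries (columns). Higher genes are read in every library, while the 14 lower genes are at or near 0 in all flox/flox libraries.

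Club cell genes were less even. Of 16 club cell genes, 13 had a log2 fold change above 0, with a median of 0.84, and 4 were higher (25%, beside 3.54% of all genes) and 0 lower. The members past the unadjusted threshold were enzymes. Cyp2f2, a cytochrome P450 of club cells, stood at 1071, 1299.6, 2943 and 1329 CPM in flox/+ and 2865, 6978 and 4829 in flox/flox (log2 fold change 1.56, SE 0.56, edgeR adjusted p = 0.437), with flox/flox replicate 1 just below flox/+ replicate 3. Aldh1a1, a retinal dehydrogenase, stood at 298, 930.3, 922 and 284 CPM in flox/+ and 1447, 1428 and 1426 in flox/flox (log2 fold change 1.24, SE 0.56, edgeR adjusted p = 0.534) and was almost equal in the flox/flox libraries. Ces1d, a carboxylesterase, stood at 168, 356, 286 and 156 CPM in flox/+ and 959.7, 501 and 901 in flox/flox (log2 fold change 1.71, SE 0.52, edgeR adjusted p = 0.437), also without overlap. The secretoglobins did not separate the genotypes, with Scgb1a1 at 87936, 149802, 38228 and 24648 CPM in flox/+ and 189121, 65031 and 35869 in flox/flox (log2 fold change 0.36, SE 0.86, edgeR adjusted p = 0.963) and Scgb3a2 at log2 fold change 1.06, SE 0.90, edgeR adjusted p = 0.809. Summed club cell levels overlapped, at 96266, 160843, 55607 and 32305 CPM in flox/+ and 208748, 93734 and 56162 in flox/flox, and the list had 2 higher members without flox/+ replicate 1, flox/+ replicate 4 or flox/flox replicate 2. Goblet and BPI genes had 6 of 9 above 0 and 0 past the unadjusted threshold in either direction.

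Genes of alveolar type II cells lay below flox/+. Of 20 tested, 18 had a log2 fold change below 0, the median was -1.90, and 11 were lower and 1 higher, a share of 55% beside 5.43%. Sftpc, surfactant protein C, stood at 85031, 32941, 142425 and 104316 CPM in flox/+ and 20639, 17639 and 10556 in flox/flox (log2 fold change -2.49, SE 0.79, edgeR adjusted p = 0.437). Egfl6, a secreted protein, stood at 191, 72.7, 58.3 and 258 CPM in flox/+ and 20.3, 0.0851 and 1.03 in flox/flox (log2 fold change -4.35, SE 1.39, edgeR adjusted p = 0.437), and the chemokine Cxcl15 of the lung epithelium at 7850.1, 2501, 3319 and 1986 CPM in flox/+ and 1639, 204 and 270.0 in flox/flox (log2 fold change -2.47, SE 0.82, edgeR adjusted p = 0.437). All 3 were lower in every flox/flox library than in any flox/+ library. Chil1, a chitinase-like protein, and Napsa, which processes surfactant, overlapped through flox/+ replicate 2, with log2 fold change -2.84, SE 0.79, edgeR adjusted p = 0.437 and log2 fold change -1.91, SE 0.65, edgeR adjusted p = 0.437. The summed list, of which Sftpc is the greatest part, was 130232, 56589, 206520.4 and 145254 CPM in flox/+ and 35611, 32976 and 30656 in flox/flox.
Other type II genes differed between the flox/flox libraries. Abca3, the lamellar body lipid pump, stood at 278, 200.4, 203 and 363 CPM in flox/+ and 277, 104 and 16.3 in flox/flox. Lamp3, of the same organelle, stood at 597, 296, 365 and 352 CPM in flox/+ and 380.1, 79.8 and 0.547 in flox/flox. In flox/flox replicate 1 both were inside the flox/+ range, and in replicate 3 both were far below it. Etv5, a factor of type II identity, overlapped (log2 fold change -0.28, SE 0.55, edgeR adjusted p = 0.952). Cd74, the invariant chain and the member that was higher, was highest in flox/flox replicate 3, at 108, 69.5, 370.3 and 404 CPM in flox/+ and 131, 246 and 3928 in flox/flox (log2 fold change 2.59, SE 0.99, edgeR adjusted p = 0.442). The count of lower members was 7 without flox/+ replicate 1 or 4, and 6 without flox/+ replicate 3 or flox/flox replicate 2.

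Type I had 2 higher and 2 lower of 15 (13.3% each, beside 3.54% and 5.43% of all genes), and 0 higher without flox/+ replicate 1, 3 or 4 or flox/flox replicate 3. Ager, the type I receptor RAGE, stood at 227, 45.1, 813 and 1003 CPM in flox/+ and 106, 4.25 and 66.4 in flox/flox (log2 fold change -3.15, SE 1.09, edgeR adjusted p = 0.437). Aqp5, the water channel, stood at 269, 162, 359.8 and 339.8 CPM in flox/+ and 168, 1235 and 829 in flox/flox (log2 fold change 1.4, SE 0.62, edgeR adjusted p = 0.527). Both Ager and Aqp5 overlapped between genotypes. Of 18 genes of the transitional state, through which type II cells leave their identity, 1 was lower (5.56%, near the 5.43% of all genes), Ndrg1, at 91.3, 52.9, 48.2 and 87.3 CPM in flox/+ and 3.5, 14.8 and 0.0912 in flox/flox (log2 fold change -3.51, SE 1.35, edgeR adjusted p = 0.442). The count of lower transitional genes was 5 without flox/flox replicate 3, 2 without flox/+ replicate 2 and 0 without flox/+ replicate 1, flox/+ replicate 4 or flox/flox replicate 1. Krt8 overlapped widely, at 465, 545, 1496 and 1470.1 CPM in flox/+ and 316, 1449 and 2424 in flox/flox.

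Lung lineage factors had 3 lower (15%) and 0 higher of 20, beside 5.43% and 3.54% of all genes. Nkx2-1, the factor of lung identity, stood at 199, 137, 128 and 74.1 CPM in flox/+ and 152, 8.51 and 82 in flox/flox (log2 fold change -0.73, SE 0.80, edgeR adjusted p = 0.878), and Foxa2 was close to even (log2 fold change -0.12, SE 0.68, edgeR adjusted p = 0.981). Hmga2, a chromatin protein of tumour progression, stood at 3.61, 12.2, 0.194 and 12.7 CPM in flox/+ and 0, 0 and 0.0456 in flox/flox (log2 fold change -8.07, SE 2.93, edgeR adjusted p = 0.437). Elf5, a factor of distal lung progenitors, stood at 44, 21.9, 0.777 and 14.9 CPM in flox/+ and 0.0922, 0 and 0.205 in flox/flox (log2 fold change -7.5, SE 2.45, edgeR adjusted p = 0.437). Both were at or near 0 in flox/flox and low in flox/+ replicate 3. Sox4 stood at 263, 114, 77.1 and 99.7 CPM in flox/+ and 80.6, 29.2 and 11.7 in flox/flox (log2 fold change -1.77, SE 0.79, edgeR adjusted p = 0.525). The list had 1 lower member without flox/+ replicate 1, 2 or 4.

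Of 31 lipid and sterol synthesis genes, 2 were higher (6.45%) and 3 lower (9.68%), beside 3.54% and 5.43% of all genes. Scd1, the desaturase that makes oleate, stood at 1855, 534, 969 and 710.3 CPM in flox/+ and 352, 42.8 and 239.6 in flox/flox (log2 fold change -2.27, SE 0.73, edgeR adjusted p = 0.437). Lpcat1, which makes surfactant phosphatidylcholine, stood at 401, 275, 369 and 391 CPM in flox/+ and 194, 40.7 and 2.6 in flox/flox (log2 fold change -2.18, SE 0.96, edgeR adjusted p = 0.516). Elovl1, an elongase, stood at 453, 133, 677 and 602 CPM in flox/+ and 94.3, 69.5 and 209 in flox/flox (log2 fold change -1.91, SE 0.66, edgeR adjusted p = 0.437). Sqle, an enzyme of cholesterol synthesis and a target of the sterol factor SREBP2, was on the other side, at 82.5, 81.7, 32.7 and 20.8 CPM in flox/+ and 233, 147 and 123 in flox/flox (log2 fold change 1.62, SE 0.67, edgeR adjusted p = 0.478). None of these but Elovl1 overlapped between genotypes. The list had 0 higher members without flox/+ replicate 3 or 4 or flox/flox replicate 1, and 4 higher and 1 lower without flox/flox replicate 2. Me1, the malic enzyme that supplies NADPH to fat synthesis, stood at 275, 135, 152 and 178 CPM in flox/+ and 37.1, 38.8 and 56.2 in flox/flox (log2 fold change -2.07, SE 0.60, edgeR adjusted p = 0.437). It was the 1 lower member of 32 antioxidant and NRF2 target genes (3.125%, beside 5.43% of all genes), of which 0 were higher.

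MAPK output, the set of feedback genes that follow ERK activity, had 15 of 18 members below 0 and a median of -1.11. Of the 18, 4 were lower (22.2%) and 0 higher, beside 5.43% and 3.54% of all genes. Dusp6, the ERK phosphatase, stood at 155, 209, 86.6 and 189 CPM in flox/+ and 59.2, 50.5 and 83.7 in flox/flox (log2 fold change -1.31, SE 0.60, edgeR adjusted p = 0.542). Emp1, a membrane protein, stood at 277, 339.8, 195 and 319 CPM in flox/+ and 116, 148 and 92.2 in flox/flox (log2 fold change -1.25, SE 0.52, edgeR adjusted p = 0.486). Epha2, a receptor tyrosine kinase, stood at 66.8, 86.2, 46.3 and 106 CPM in flox/+ and 33.5, 3.66 and 12.7 in flox/flox (log2 fold change -2.2, SE 0.95, edgeR adjusted p = 0.513). These 3 did not overlap, but flox/+ replicate 3 came close to flox/flox for Dusp6. Spred1, an inhibitor of RAS signalling, overlapped (log2 fold change -1.64, SE 0.74, edgeR adjusted p = 0.531), as did Spry2 (log2 fold change -1.61, SE 1.11, edgeR adjusted p = 0.743) and Etv4, at log2 fold change 1.06, SE 1.91, edgeR adjusted p = 0.948. The list had 0 lower members when flox/+ replicate 2 or flox/+ replicate 4 was left out and with a term for the Xist and Y class, and 2 without flox/+ replicate 1, flox/flox replicate 1 or flox/flox replicate 3. Summed levels were 2520.2, 2523, 1529.8 and 2533 CPM in flox/+ and 1248, 1490.2 and 1077 in flox/flox. Among EGF receptor family genes, 1 of 12 was higher (8.33%, beside 3.54% of all genes), the ligand Nrg1 at 17.6, 42.5, 67.9 and 20.1 CPM in flox/+ and 33.6, 117 and 301 in flox/flox (log2 fold change 2.02, SE 0.81, edgeR adjusted p = 0.458), and Areg was even (log2 fold change -0.06, SE 0.54, edgeR adjusted p = 0.988). Of 21 AP-1 and immediate early genes, 1 was lower (4.76%, near the 5.43% of all genes), the AP-1 subunit Fosl2 at 104, 124, 67 and 46.3 CPM in flox/+ and 29.6, 13.5 and 10.1 in flox/flox (log2 fold change -2.27, SE 0.84, edgeR adjusted p = 0.437), with Fos at log2 fold change 0.35, SE 0.72, edgeR adjusted p = 0.953 and Jun at log2 fold change 0.01, SE 0.55, edgeR adjusted p = 0.999.

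**Figure D4:**
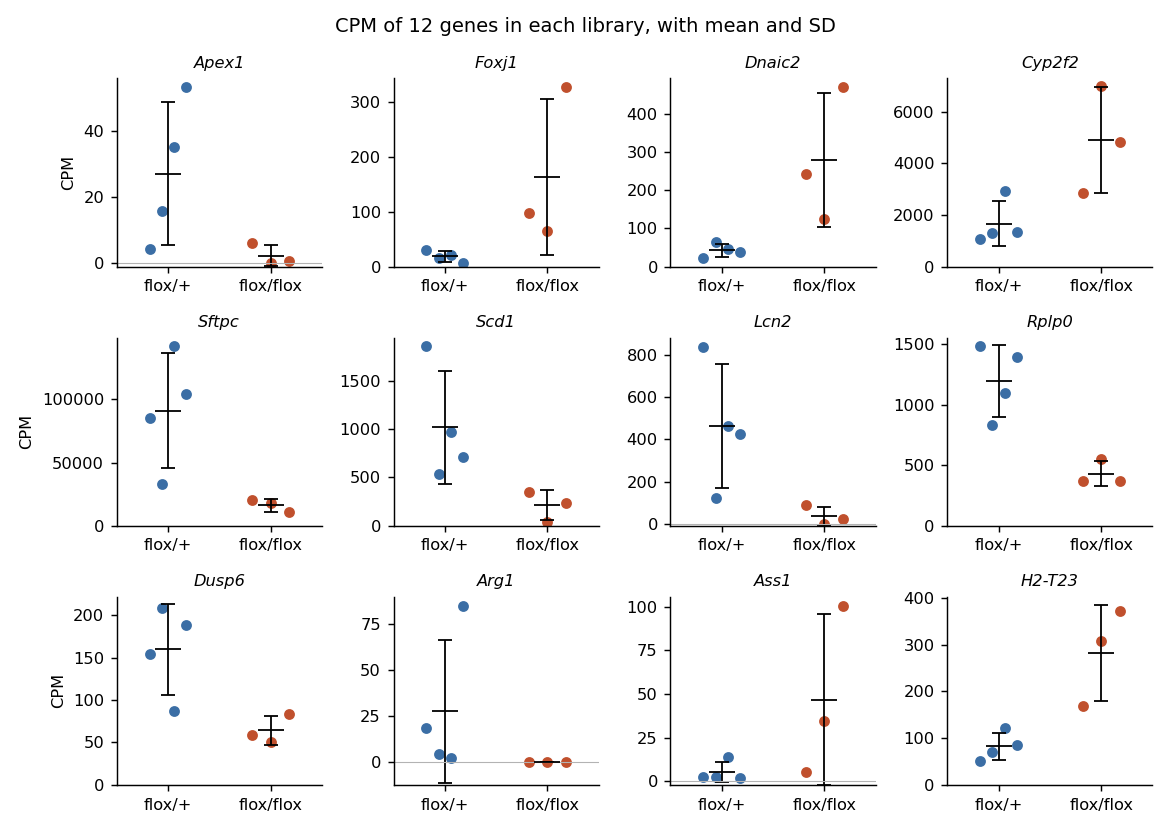
CPM of 12 genes in each library, with points for libraries and a line with bars for the mean and SD of flox/+ (n = 4) and flox/flox (n = 3). Apex1, Cyp2f2 and Ass1 overlap between genotypes, while Foxj1, Dnaic2, H2-T23, Sftpc, Scd1, Lcn2, Rplp0, Dusp6 and Arg1 do not.

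Of 26 NF-kB pathway genes and inflammatory targets, 9 were lower (34.6%) and 0 higher, beside 5.43% and 3.54% of all genes, with a median log2 fold change of -2.62. The median was -0.5 without flox/+ replicate 1, -0.96 without flox/+ replicate 2, -0.84 without flox/+ replicate 4 and -0.58 with at least 10 CPM in 3 libraries. Summed levels overlapped, at 2418, 1728, 2999.7 and 3695 CPM in flox/+ and 1159, 3869 and 2435 in flox/flox, with flox/flox replicate 2 above every flox/+ library. Lcn2, an antimicrobial siderophore-binding protein of epithelium, stood at 840.0, 124, 465 and 424 CPM in flox/+ and 86.9, 1.36 and 21 in flox/flox (log2 fold change -3.67, SE 1.09, edgeR adjusted p = 0.437), and it was read in every library. Cxcl1, a neutrophil attractant, stood at 35.3, 14, 14.8 and 232 CPM in flox/+ and 8.21, 0 and 0 in flox/flox (log2 fold change -4.77, SE 2.06, edgeR adjusted p = 0.513), with flox/+ replicate 4 far above the rest. Il1b, the cytokine of the inflammasome, stood at 8.7, 58.6, 0.0647 and 10.4 CPM in flox/+ and 0, 0 and 0.0684 in flox/flox (log2 fold change -9.05, SE 2.88, edgeR adjusted p = 0.437). Tnfaip3 and the inhibitor Nfkbia overlapped (log2 fold change -4.77, SE 2.25, edgeR adjusted p = 0.559 and log2 fold change -0.29, SE 0.68, edgeR adjusted p = 0.962). The list had 1 lower member without flox/+ replicate 4, 3 without flox/+ replicate 1, 5 without flox/+ replicate 2, and 6 when flox/flox replicate 2 was left out. With limma voom 2 were lower, where 3.14% of all genes were lower. Of leukocyte genes, the summed pan-leukocyte list stood at 35.7 to 160 CPM in flox/+ and 71.6 to 94.4 in flox/flox, and the macrophage list at 357 to 1574 and 189 to 496. Gzma and Cd79b, of lymphocytes, were lower, with Gzma at 38.6, 6.88, 20.1 and 16.9 CPM in flox/+ and 0, 0 and 0.0456 in flox/flox (log2 fold change -9.54, SE 2.48, edgeR adjusted p = 0.437) and Cd79b at 2.43 to 27.2 CPM in flox/+ and 0 counts in flox/flox. They were the only 2 members tested of the 14 T, NK and B cell genes in the table. The sum of that list overlapped, at 9.71 to 50.6 CPM in flox/+ and 1.11, 39.9 and 4.19 in flox/flox replicates 1 to 3. Neutrophil markers overlapped, with S100a8 at 157, 197, 0 and 13.8 CPM in flox/+ and 0.0922, 0 and 31.1 in flox/flox. The part of these cells in the inflammatory result was not tested.

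In the TNF superfamily, 5 of 16 genes were lower (31.25%) and 0 higher, beside 5.43% and 3.54% of all genes. Of the lower genes, 2 were the genes with 0 counts in every flox/flox library and at least 10 CPM in every flox/+ library. Tnfsf9, which encodes 4-1BBL, a costimulator of T cells, stood at 15, 11.6, 164 and 597 CPM in flox/+. Against a floor of 3 counts per library it was at least 984-fold lower, a bound of 317-fold if flox/+ replicate 4 is left out. Tnfrsf23, a decoy receptor for TRAIL in mouse, stood at 68.7, 21.4, 33.6 and 34.8 CPM in flox/+ and was at least 198-fold lower. Its paralog Tnfrsf22 stood at 22.8, 3.42, 0 and 11.5 CPM in flox/+ and also had 0 counts in flox/flox. Tnfrsf1b, TNF receptor 2, stood at 16.3, 7.68, 7.31 and 8.35 CPM in flox/+ and had 0 counts in flox/flox, at least 49.6-fold lower. The death receptor Fas overlapped, at 14.2, 15.8, 2.07 and 46.6 CPM in flox/+ and 8.11, 42 and 91.1 in flox/flox (log2 fold change 1.26, SE 1.21, edgeR adjusted p = 0.849). Ptges, which makes prostaglandin E, and Qpct, which cyclises the ends of chemokines, also had 0 counts in flox/flox, with 7.63 to 41.0 and 8.59 to 80.1 CPM in flox/+, at least 108-fold and at least 180-fold lower, a bound of 107-fold for Qpct if flox/+ replicate 4 is left out. The TNF list had 3 lower members without flox/+ replicate 1 or 2, and 2 with voom, where 3.14% of all genes were lower. Its median log2 fold change was -1.58. With at least 10 CPM in 3 libraries the median was 0.19, and 2 of 9 members were lower, beside 3.32% of all genes. Bounds cover counting error only.

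Other lower genes were among the 15 with the smallest p and no overlap. Fn1, fibronectin, stood at 142, 10.6, 29.5 and 40.2 CPM in flox/+ and 0.184, 0 and 0.114 in flox/flox (log2 fold change -9.02, SE 1.81, edgeR adjusted p = 0.437), while the collagen genes Col1a1 and Col1a2 were near 0 in most libraries of both genotypes. Myh7, the slow and cardiac myosin heavy chain, stood at 25.8, 21.8, 39.2 and 89.7 CPM in flox/+ and 0.277, 0.170 and 0.410 in flox/flox (log2 fold change -7.21, SE 1.59, edgeR adjusted p = 0.437). Mhrt lies antisense over Myh7 and stood at 20.7, 18.5, 37.5 and 80.9 CPM in flox/+ and 0, 0 and 0.205 in flox/flox. Without a stated strand setting the reads of this pair cannot be told apart. Of other cardiac genes, Myh6 was at most 2.73 CPM in any library and Tnni3 stood at 9.66, 3.68, 24.3 and 6.66 CPM in flox/+ and 52.1, 0 and 57.1 in flox/flox.
Hspb8, a small heat shock protein, stood at 107, 62, 39.8 and 80.7 CPM in flox/+ and 1.29, 0.0851 and 0 in flox/flox (log2 fold change -7.35, SE 1.74, edgeR adjusted p = 0.437). S100a14, a calcium-binding protein of epithelium, stood at 86.4, 24.8, 41.1 and 102 CPM in flox/+ and 1.38, 0 and 0.137 in flox/flox (log2 fold change -7.0, SE 1.68, edgeR adjusted p = 0.437). Kng2, a kininogen, stood at 15.9, 3.63, 9.84 and 309 CPM in flox/+ and 0, 0 and 0.0228 in flox/flox. Kng2 was highest in flox/+ replicate 4. Rgs4, a brake on G protein signalling, stood at 112, 33.4, 0.129 and 24 CPM in flox/+ and 0, 0 and 0.0684 in flox/flox, with flox/+ replicate 3 near the flox/flox level. Rexo4, an exonuclease family member, Tmem163, a zinc transporter, and St6galnac4, a sialyltransferase, stood at 5.71 to 60.4 CPM in flox/+ libraries and at no more than 0.277 in flox/flox. Gsn, the actin-severing gelsolin, was the fibroblast-list member on the other side, at 124, 74.7, 79.8 and 48.8 CPM in flox/+ and 1273, 34.8 and 1431 in flox/flox (log2 fold change 3.48, SE 0.87, edgeR adjusted p = 0.437), high in flox/flox replicates 1 and 3 and below flox/+ in replicate 2.

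Ribosomal protein genes had lower fitted values in flox/flox. All 72 ribosomal protein genes tested had a log2 fold change below 0, between -1.77 and -0.37, with a median of -1.02, and 14 were lower and 0 higher, 19.4% beside 5.43%. Rplp0, of the ribosome stalk, stood at 1483, 829, 1095 and 1391 CPM in flox/+ and 372, 551 and 369.8 in flox/flox (log2 fold change -1.48, SE 0.50, edgeR adjusted p = 0.437). Rpl6 stood at 395, 386, 443 and 611 CPM in flox/+ and 177, 158 and 191 in flox/flox (log2 fold change -1.39, SE 0.49, edgeR adjusted p = 0.437). Rpl14 stood at 519, 389.6, 306 and 376 CPM in flox/+ and 165, 171 and 120.3 in flox/flox (log2 fold change -1.38, SE 0.50, edgeR adjusted p = 0.437). In all 3 the highest flox/flox library was below the lowest flox/+ library. By library, the median difference of log2 CPM over the list was -0.22, -1.11 and -1.98 in flox/flox replicates 1 to 3, with 25, 2 and 0 of the 72 members above 0. The count of lower members was 33 without flox/flox replicate 1 and 5 without either of flox/flox replicates 2 and 3, and 6 without flox/+ replicate 4. Summed levels overlapped, at 57401, 34843, 26252 and 36464 CPM in flox/+ and 28566, 16838 and 11124 in flox/flox. Ribosomal protein genes have many processed pseudogenes, with which the counting could share reads.
Ribosome biogenesis had 2 lower (7.41%) and 1 higher (3.70%) of 27, near the 5.43% and 3.54% of all genes. The lower count became 6 when flox/flox replicate 1 was left out, 5 when it was flox/flox replicate 2, 1 when it was flox/+ replicate 1 or 2 and 0 when it was flox/+ replicate 4. Nop56, which guides methylation of ribosomal RNA, stood at 57.5, 35, 23.5 and 172 CPM in flox/+ and 23, 11.7 and 5.68 in flox/flox (log2 fold change -2.42, SE 1.04, edgeR adjusted p = 0.505). Pes1, the higher member, stood at 25.4, 15.7, 2.72 and 10.6 CPM in flox/+ and 10.7, 50.9 and 199 in flox/flox (log2 fold change 2.68, SE 1.1, edgeR adjusted p = 0.478). Of 19 aminoacyl-tRNA synthetases, 2 were lower (10.5%, beside 5.43%). Rars, for arginine, stood at 56.5, 45.4, 54.4 and 92.6 CPM in flox/+ and 5.25, 0 and 1.69 in flox/flox (log2 fold change -4.75, SE 1.52, edgeR adjusted p = 0.437). Aars, for alanine, stood at 15.5, 22.3, 5.5 and 49.8 CPM in flox/+ and 0.553, 0 and 0.0912 in flox/flox (log2 fold change -6.76, SE 2.26, edgeR adjusted p = 0.437). Eprs, for glutamate and proline, was on the other side at 89.3, 82.3, 37.8 and 93.9 CPM in flox/+ and 138, 137 and 197 in flox/flox (log2 fold change 1.05, SE 0.58, edgeR adjusted p = 0.655). In the integrated stress response, 3 genes were lower (11.1%) and 2 higher (7.41%) of 27, and 0 higher without flox/+ replicate 2, 3 or 4 or flox/flox replicate 3. The lower ones were the serine and one-carbon enzymes Psat1, at 19.6, 15.3, 7.51 and 66.2 CPM in flox/+ and 0.0922, 0 and 0 in flox/flox (log2 fold change -9.8, SE 2.49, edgeR adjusted p = 0.437), Mthfd2, at 22.1, 24.1, 1.75 and 47 CPM in flox/+ and 0, 0 and 0.547 in flox/flox (log2 fold change -6.86, SE 2.41, edgeR adjusted p = 0.437), and Phgdh (log2 fold change -8.32, SE 3.11, edgeR adjusted p = 0.437). Their activator Atf4 was even, at 143, 120.0, 177 and 153 CPM in flox/+ and 242, 73.7 and 203 in flox/flox (log2 fold change 0.22, SE 0.56, edgeR adjusted p = 0.967), and Ddit3 and Asns overlapped as well.

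Base excision repair, the pathway of APE1 itself, had 1 higher and 1 lower of 26 (3.85% each), near the 3.54% and 5.43% of all genes, at a median of -0.13. Without flox/flox replicate 1 it had 2 higher and 5 lower, beside 5.68% and 11.3% of all genes in that fit. Pold3, a subunit of DNA polymerase delta, stood at 20.5, 18.3, 3.69 and 2.57 CPM in flox/+ and 42, 61.6 and 118 in flox/flox (log2 fold change 2.72, SE 1.06, edgeR adjusted p = 0.447). Mbd4, a glycosylase for thymine opposite guanine, stood at 11.1, 7.15, 28 and 0.437 CPM in flox/+ and 0.0922, 0 and 0.251 in flox/flox (log2 fold change -6.51, SE 2.64, edgeR adjusted p = 0.470). Polb and Ogg1, the polymerase that fills the gap and the glycosylase for oxidised guanine, gave log2 fold change -1.23, SE 1.28, edgeR adjusted p = 0.865 and log2 fold change 0.98, SE 1.52, edgeR adjusted p = 0.934. Xrcc1, the scaffold of single-strand break repair, was high in flox/flox replicate 2, at 9.59, 9.18, 0 and 3.98 CPM in flox/+ and 9.03, 135 and 22.2 in flox/flox (log2 fold change 3.28, SE 1.6, edgeR adjusted p = 0.566), and Apex2, the paralog of Apex1, overlapped (log2 fold change 0.58, SE 2.02, edgeR adjusted p = 0.978). In double-strand break repair, 2 of 23 were lower (8.70%) and 0 higher, both of end joining, with 1 lower without flox/+ replicate 1, 2 or 4 or flox/flox replicate 2 and 4 without flox/flox replicate 3. Prkdc stood at 3.1, 13.4, 16.3 and 18.7 CPM in flox/+ and 0.0922, 0.425 and 0.0912 in flox/flox (log2 fold change -5.97, SE 2.32, edgeR adjusted p = 0.446). Xrcc6 stood at 26.7, 18.5, 0.0647 and 25.7 CPM in flox/+ and 0.184, 0 and 0.775 in flox/flox (log2 fold change -5.72, SE 2.51, edgeR adjusted p = 0.514), while its partner Xrcc5 overlapped, at 47.8, 42.7, 48.5 and 22.4 CPM in flox/+ and 101, 75.7 and 17.3 in flox/flox. None of 20 G-quadruplex helicases and binders passed the unadjusted threshold in either direction, with a median of -0.14. The helicase Dhx36 stood at 20.5, 35.6, 45.7 and 7.59 CPM in flox/+ and 39, 0.0851 and 13.5 in flox/flox and nucleolin, Ncl, at 345, 234, 237 and 255 CPM in flox/+ and 175, 366 and 239 in flox/flox (log2 fold change -0.04, SE 0.50, edgeR adjusted p = 0.991).

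Of 6 urea cycle genes tested, 1 was higher (16.7%) and 2 lower (33.3%), beside 3.54% and 5.43% of all genes. Ass1, which joins citrulline and aspartate, stood at 2.73, 2.4, 13.9 and 1.96 CPM in flox/+ and 5.62, 34.4 and 101 in flox/flox (log2 fold change 3.16, SE 1.4, edgeR adjusted p = 0.520), with flox/flox replicate 1 below flox/+ replicate 3. It was no longer past the unadjusted threshold without flox/+ replicate 1, 2 or 4, without flox/flox replicate 3, with RLE size factors or with voom. Arg1, the cytosolic arginase, stood at 18.8, 4.75, 2.59 and 85.1 CPM in flox/+ and had 0 counts in flox/flox, at least 139-fold lower, a bound of 43.6-fold if flox/+ replicate 4 is left out. Arg2, the mitochondrial arginase, stood at 80.0, 68.9, 217 and 249 CPM in flox/+ and 40.3, 79.5 and 43.1 in flox/flox (log2 fold change -1.5, SE 0.69, edgeR adjusted p = 0.545) and overlapped. The carriers Slc25a15 and Slc25a13 and the lyase Asl overlapped too, Asl at 3.1, 9.34, 74.6 and 47.7 CPM in flox/+ and 6.55, 107 and 56.5 in flox/flox (log2 fold change 0.75, SE 1.16, edgeR adjusted p = 0.934). Polyamine genes, downstream of arginase, had 1 higher and 1 lower of 11 (9.09% each, beside 3.54% and 5.43% of all genes). Oaz2, an antizyme that brakes ornithine decarboxylase, stood at 117, 101, 138 and 103 CPM in flox/+ and 157, 298 and 537 in flox/flox (log2 fold change 1.53, SE 0.55, edgeR adjusted p = 0.437). Paox, a polyamine oxidase, stood at 6.71, 2.45, 2.52 and 15.3 CPM in flox/+ and 0, 0 and 0.0456 in flox/flox (log2 fold change -7.98, SE 2.79, edgeR adjusted p = 0.437). Odc1, the decarboxylase, stood at 57.5, 98.1, 92.3 and 75.2 CPM in flox/+ and 187, 56.6 and 147 in flox/flox (log2 fold change 0.69, SE 0.62, edgeR adjusted p = 0.825).
The Ass1 promoter is shown because it holds the letter pattern of a G-quadruplex, which was taken as 4 runs of GGG with spacers of 1 to 7 bases, searched on both strands. It is written for the 250 bases before the gene's start (RefSeq, GRCm38.p6, + strand), with the 2 matches in capitals.
Ass1, chr2:31470020-31470269: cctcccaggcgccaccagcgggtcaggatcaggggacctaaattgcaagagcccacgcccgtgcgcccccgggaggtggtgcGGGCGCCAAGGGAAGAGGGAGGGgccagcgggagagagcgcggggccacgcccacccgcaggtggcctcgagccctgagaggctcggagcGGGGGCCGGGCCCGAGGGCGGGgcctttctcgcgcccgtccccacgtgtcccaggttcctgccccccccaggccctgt
Slc25a15 also held 2 matches at 1 of its starts, and Otc, Nags and Slc25a13 held 0. Arg1, Arg2 and Asl had no promoter entry and were not searched. The pattern stood in 30.4% of the promoters of genes tested, 27.0% of those of higher genes and 33.3% of those of lower genes, and in 20.4% of all 27025 genes with a promoter entry. A match does not show that the fold forms.

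Of 27 p53 targets, 1 was higher, Sesn2, at 4.2, 0.160, 1.16 and 0 CPM in flox/+ and 0.184, 12.7 and 98.8 in flox/flox (log2 fold change 4.75, SE 2.14, edgeR adjusted p = 0.530), and the main targets overlapped, with Cdkn1a at 221, 276, 894 and 873 CPM in flox/+ and 86.4, 1378 and 323 in flox/flox (log2 fold change 0.07, SE 0.80, edgeR adjusted p = 0.990) and Mdm2 at log2 fold change 0.66, SE 0.61, edgeR adjusted p = 0.833. In the BCL2 family 1 of 18 was higher, Bok, a pore-forming member, at 21.5, 56.8, 67.1 and 58.5 CPM in flox/+ and 143, 212 and 227 in flox/flox (log2 fold change 1.93, SE 0.61, edgeR adjusted p = 0.437). Its libraries did not overlap, and Mcl1 and Bax did (log2 fold change -0.55, SE 0.54, edgeR adjusted p = 0.855 and log2 fold change -0.17, SE 0.79, edgeR adjusted p = 0.981). Of 29 cell cycle genes, 1 was higher and 1 lower (3.45% each), near the 3.54% and 5.43% of all genes. The higher share was 3.70% for p53 targets and 5.56% for the BCL2 family, beside the same 3.54%. Ccnd3, cyclin D3, stood at 28.3, 33.1, 27.9 and 33.6 CPM in flox/+ and 57.4, 39.5 and 405 in flox/flox (log2 fold change 2.44, SE 0.81, edgeR adjusted p = 0.437). Ccne2, cyclin E2, stood at 13.3, 9.45, 19.8 and 19.7 CPM in flox/+ and 0, 0 and 1.0 in flox/flox (log2 fold change -5.45, SE 2.44, edgeR adjusted p = 0.528), while Mki67 and Top2a were at no more than 29 and 14.1 CPM in any library. DNA methylation enzymes had 0 of 10 past the unadjusted threshold.

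Of 22 class I genes, 16 had a log2 fold change above 0, with a median of 0.82, and 1 was higher (4.55%, near the 3.54% of all genes). It was H2-T23, the Qa-1 molecule, at 52.2, 71.5, 121 and 86.3 CPM in flox/+ and 169, 307 and 372 in flox/flox (log2 fold change 1.77, SE 0.55, edgeR adjusted p = 0.437), with no overlap. H2-K1 and B2m overlapped (log2 fold change 0.66, SE 0.56, edgeR adjusted p = 0.809 and log2 fold change 0.17, SE 0.56, edgeR adjusted p = 0.977), and class I genes share sequence, so their reads are uncertain. Class II had 1 higher of 10 (10%, beside 3.54% of all genes), Cd74, and its activator Ciita stood at 5.09, 3.52, 11.5 and 5.73 CPM in flox/+ and 0, 0.510 and 0.0228 in flox/flox (log2 fold change -5.16, SE 2.53, edgeR adjusted p = 0.566). Interferon-stimulated genes had 1 higher (4%) and 2 lower (8%) of 25, beside 3.54% and 5.43% of all genes. With flox/flox replicate 2 left out, 5 were higher and 0 lower, beside 6.73% and 4.71% of all genes. With flox/flox replicate 1 left out, 3 were higher and 6 lower, beside 5.68% and 11.3% of all genes. With flox/+ replicate 4 left out, 0 passed in either direction, and with flox/+ replicate 2 or 3 left out, 0 were lower. Stat2, a transcription factor of the type I interferon response and a lower member, stood at 2.07, 7.95, 43.4 and 11.8 CPM in flox/+ and 0.738, 0 and 0 in flox/flox (log2 fold change -6.06, SE 2.67, edgeR adjusted p = 0.515).

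Oxidative phosphorylation had 1 higher and 1 lower of 50 (2% each), below the shares of all genes, at a median of -0.14. Glycolysis had 1 and 1 of 27 (3.70% each), near those shares, at 0.28. Ndufs1, a complex I subunit, stood at 42, 39.3, 36 and 34.9 CPM in flox/+ and 56, 38.2 and 357 in flox/flox (log2 fold change 1.98, SE 0.79, edgeR adjusted p = 0.458) and was highest in flox/flox replicate 3. In the lysosome list, 2 were higher (6.25%) and 4 lower (12.5%) of 32, beside 3.54% and 5.43% of all genes. There were 0 higher without flox/+ replicate 1 or flox/flox replicate 3 and 2 lower without flox/+ replicate 4 or flox/flox replicate 1. Npc2, which binds cholesterol in the lysosome lumen, stood at 2138, 1041, 2313 and 3341 CPM in flox/+ and 442, 593 and 517 in flox/flox (log2 fold change -2.09, SE 0.56, edgeR adjusted p = 0.437), and its flox/flox values were close to each other. Ostm1 and Clcn7, the partners of the lysosomal chloride transporter, stood at 33.9, 38.8, 7.31 and 18.1 CPM in flox/+ and 0, 0 and 0.0684 in flox/flox (log2 fold change -9.36, SE 2.36, edgeR adjusted p = 0.437) and 1.18, 9.13, 4.08 and 43.3 CPM in flox/+ and 0.553, 0.680 and 0.0684 in flox/flox (log2 fold change -5.05, SE 2.33, edgeR adjusted p = 0.548). Psap, the saposin precursor, was on the other side at 26.6, 28.9, 112 and 46 CPM in flox/+ and 76.9, 106 and 509 in flox/flox (log2 fold change 2.11, SE 0.77, edgeR adjusted p = 0.437).

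**Figure D5:**
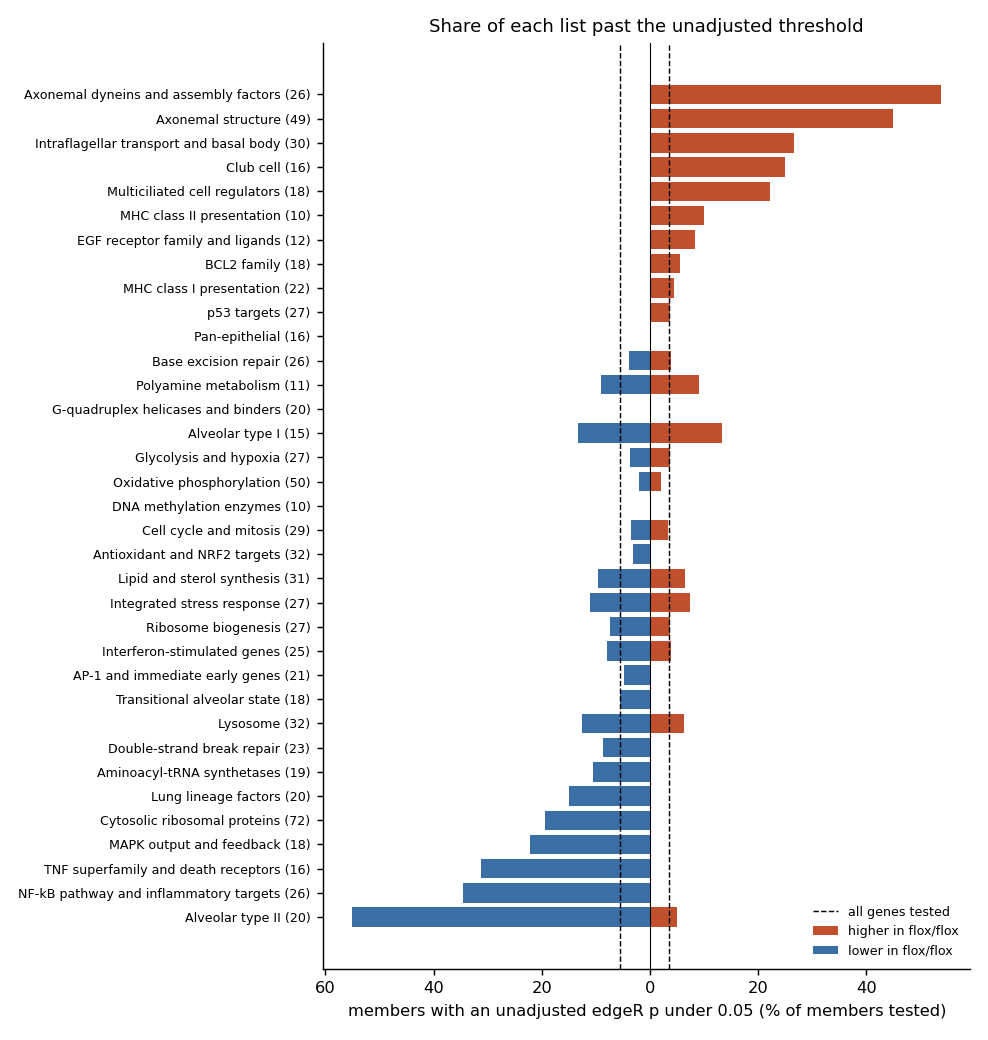
For each list with at least 10 members tested (number in brackets), the share of members at an unadjusted edgeR p under 0.05, higher in flox/flox to the right and lower to the left. Dashed lines mark the shares over all genes tested, 3.54% higher and 5.43% lower, and the 4 cilia lists lie at 22.2% to 53.8% higher and the alveolar type II list at 55% lower. Several other lists, such as club cell to the right and lung lineage and lysosome to the left, also lie past a line.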

How the data were processed

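RNA of 7 libraries was measured as raw read counts per gene, which the authors deposited in 1 table with no normalization. Per the submitters' processing notes, Trim Galore 0.5.0, HISAT2 2.1.0, featureCounts 1.6.4 and DESeq2 were used with mm10; the annotation, strand setting and handling of reads with several matches were not given in the sources used here. Columns were matched to samples by their labels, and the remaining 3 libraries entered 1 alternative only. Genes with enough counts by filterByExpr were tested with edgeR 4.0.16 (R 4.3.3), TMM scaling, the quasi-likelihood test and Benjamini-Hochberg adjustment, at a threshold of 0.05; the common dispersion was 1.66. CPM use TMM library sizes, and differences of mean log2 CPM a prior count of 2. The code was tested on simulated data. DESeq2 1.42.0 and limma 3.58.1 (voom) were alternatives. Named genes were members of 47 lists and the 15 per direction with the smallest p and no overlap between genotypes. Members, lists and motif searches were chosen with earlier results of these data known. Replicate numbers did not pair the samples. No 2 libraries agreed within sampling noise. Results for a few genes are not reported here.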

Additional observations from a re-analysis of the deposited data

Results flagged for a closer look

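Within the 4 flox/+ libraries, the highest or lowest library stood far from the other 3 for 10 of 170 values examined (5.88%), and chance flags about 1 in 20 groups. Flox/+ replicate 3 stood apart for Ass1 at 13.9 CPM, for Cyp2f2 at 2943 CPM, for Dnaaf1 at 50.2 CPM and, as the low library, for the summed MAPK output list at 1529.8 CPM. Flox/+ replicate 4 stood apart for Cxcl1 at 232 CPM, for Kng2 at 309 CPM and for Phgdh at 45.1 CPM. Flox/+ replicate 1 stood apart for Drc1, low at 12.0 CPM, and for Tnfrsf1b, high at 16.3 CPM. Flox/+ replicate 2 was high for Enpp5 at 72.3 CPM. The 3 flox/flox libraries were too few for this check.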

How the results depend on the processing

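The 1092 genes at an unadjusted p under 0.05 became 1942 when all 10 libraries were fitted together, 716 with voom, 1994 (1330 higher and 664 lower) with no filter on low counts, 605 (316 higher and 289 lower) with at least 10 CPM in 3 libraries, and 537 to 2222 when 1 library was left out. Without flox/flox replicate 2 they were 890 higher and 623 lower, and without flox/flox replicate 3 229 and 779. The 0 genes at an adjusted p under 0.05 became 432 with DESeq2, 63 with no filter, 1 without flox/flox replicates 2 and 3 together (where the 1 flox/flox library that remains is assumed to vary like flox/+), and 0 to 2 when 1 library was left out. With the replicate number as a block the counts were 4 and 536; numbers are shared by label only, with correlations of deviations of 0.113, -0.07 and 0.016 for replicates 1 to 3, so they were not taken to pair the samples. For these counts the cause was not tested. No direction reversed for a gene with its own alternatives. These genes were Apex1 and the 30 chosen for the smallest p and no overlap, a choice that leaves little room for a reversal. The common dispersion of 1.66, a coefficient of variation of 1.29 between libraries, limits which differences could pass.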
